A study of Mus musculus with 6 samples.

Results

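The genes described here encode proteins of the cytosolic ribosome, measured in lenses of newborn mice (postnatal day 0). They were taken by symbol: every probe set with 1 gene symbol of the form Rpl or Rps followed by a digit or p, leaving out kinases, pseudogenes and symbols ending in l. A probe set is the group of short probes that the array uses to measure 1 transcript. The rule found 92 probe sets of 43 genes, out of 12393 genes represented on the array, and each gene is described by its brightest probe set, the one of highest mean log2 intensity over the 6 arrays. Of the 43 genes, 24 encode proteins of the large subunit, Rplp0 and Rplp2 of its stalk among them, and 19 encode proteins of the small subunit. The symbols Rpl7l1 and Rpl22l1 pass the rule although they name paralogues of Rpl7 and Rpl22.

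Total RNA was taken from lenses of 3 Le-AP-2alpha conditional mutant samples and of 3 samples from wild-type littermates, with 1 array per sample. The targeted gene, Tfap2a, encodes the transcription factor AP-2alpha. The title of the series asks what AP-2alpha does within the lens itself, for the separation of the lens vesicle and for the lens epithelium. In published use the prefix Le stands for a Cre transgene under Pax6 regulatory sequences that is active in the surface ectoderm from which the lens forms. The labels do not spell this out, and do not say which part of Tfap2a was removed, or whether the wild types carried a transgene. Nor do they say if the lenses of 1 mouse or of several went into a sample, and p-values here measure only the spread between these samples. Wild-type replicate 1 stood apart: over all probe sets its Pearson correlation with any other array was at most 0.945, whereas each of the other 5 arrays reached 0.983 to 0.985 with its nearest. Tfap2a read higher, not lower, in the samples labelled mutant: its 3 probe sets differed by 1.57 ± 0.49 (SE), 0.36 ± 0.36 and 0.62 ± 0.33 on the log2 scale, mutant minus wild type, each with a limma adjusted p of 0.999. The first of these was at 8.86, 7.85 and 9.22 in mutants and 6.44, 7.87 and 6.92 in wild types, and the brightest, the last, at 9.57, 9.64 and 9.83 against 8.36, 9.26 and 9.56. The groups overlapped for the first and did not for the brightest. Where these probes lie relative to the deleted part was not used here, so the readings check no deletion, and mutant and wild type below are as labelled.

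Ribosomes read messenger RNA in the small subunit and join amino acids in the large subunit. Each carries a single copy of most of its proteins, and their genes are expressed in every cell, with transcripts that are among the most abundant of growing tissue. Their transcripts typically begin with a C followed by a run of pyrimidines, the terminal oligopyrimidine or TOP tract, through which mTORC1 signalling and the protein Larp1 control their translation.

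This tract is shown for the 8 members whose annotated transcription start in RefSeq (build GRCm38.p6) coincides with it, because it is the feature described above and was not used to choose the members; most members do not have it at the annotated start. Each line gives 30 bases, 5′ to 3′ on the gene's strand, of which 10 lie before the start; capitals mark the C at the start and the pyrimidines (C or T) that follow it without a break.
Rpl14 (chr9:120571507-120571536, plus strand): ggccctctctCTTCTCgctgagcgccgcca
Rpl35 (chr2:39005112-39005141, minus strand): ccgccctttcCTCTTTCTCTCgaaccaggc
Rpl38 (chr11:114668570-114668599, plus strand): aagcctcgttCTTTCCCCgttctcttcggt
Rplp2 (chr7:141447641-141447670, plus strand): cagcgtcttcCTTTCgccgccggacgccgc
Rps6 (chr4:86857348-86857377, minus strand): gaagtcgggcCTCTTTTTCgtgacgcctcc
Rps10 (chr17:27635225-27635254, minus strand): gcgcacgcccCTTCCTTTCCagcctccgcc
Rps18 (chr17:33955646-33955675, minus strand): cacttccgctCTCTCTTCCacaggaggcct
Rps27 (chr3:90213629-90213658, minus strand): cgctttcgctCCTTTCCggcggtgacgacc

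RefSeq promoter entries of 300 bases, 250 before the start and 50 after it, were matched by symbol for 38 of the 43 members, as 44 entries. A C followed by 4 or more pyrimidines lay at the annotated start in 8 of these 44 entries (18.2%), against 2.51% of all 32851 entries. Within 5 bases of the start it was found in 20 entries (45.5%), against 18.3% of all entries. The motif CCGGAAG of ETS factors was present on either strand in 18 entries (40.9%), against 8.86% of all, and AAGATGG, a YY1 motif, in 7 entries (15.9%), against 6.34%. GGGCGG, a motif of Sp1, was present in 24 entries (54.5% against 35.7% of all). TATAAA was present in 6 entries (13.6% against 13.6% of all), and GCCNNNGGC, the motif of AP-2 factors, in 5 (11.4% against 16.6%). The GGGCGG and AP-2 motifs favour GC-rich sequence, and the median GC content was 57.2% in the members' entries and 52.7% in all entries. These matches describe letters in a window and are not measured sites.

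Ribosomal protein genes stood near the top of the range in every array. The median of their mean log2 intensities was 12.5, against 5.83 for all genes, and 30 of the 43 had a mean of 12 or more, a level reached by 188 genes in all. The highest value on an array lay between 13.9 and 13.97, and 14 members had a mean within 1 of the lower of these maxima, where differences can be compressed. The brightest probe set was that of Rpl41, which encodes the shortest ribosomal protein, with 13.43, 13.76 and 13.48 in the mutants and 13.67, 13.40 and 13.65 in the wild types. Rpl7a, a large subunit protein, had mutant values of 13.47, 13.23 and 13.43 and wild-type values of 13.31, 13.42 and 13.25. Both sets of values overlapped between the groups.

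The probe sets of Rpl37, Rps27 and Rpl39 were dimmer than the median probe set, at 5.26. Rpl37 lay between 3.45 and 3.75, Rps27 between 3.96 and 5.09 and Rpl39, a small protein of the exit tunnel, between 5.11 and 5.44. Each of these 3 genes had 1 probe set under the rule. Probe sets differ in how well they bind, so this order of intensities is not an order of transcript amounts. Ribosomal protein genes have many processed pseudogenes, and 102 further probe sets were annotated to several symbols that included a ribosomal protein gene. These were not used to name a gene. Their median log2 level was 12.7, 12 of them were dim, 66 were lower and 36 higher in mutants, with a median difference of -0.04, and 0 passed in limma either at an adjusted p under 0.05 or at an unadjusted p under 0.05.

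**Figure D1:**
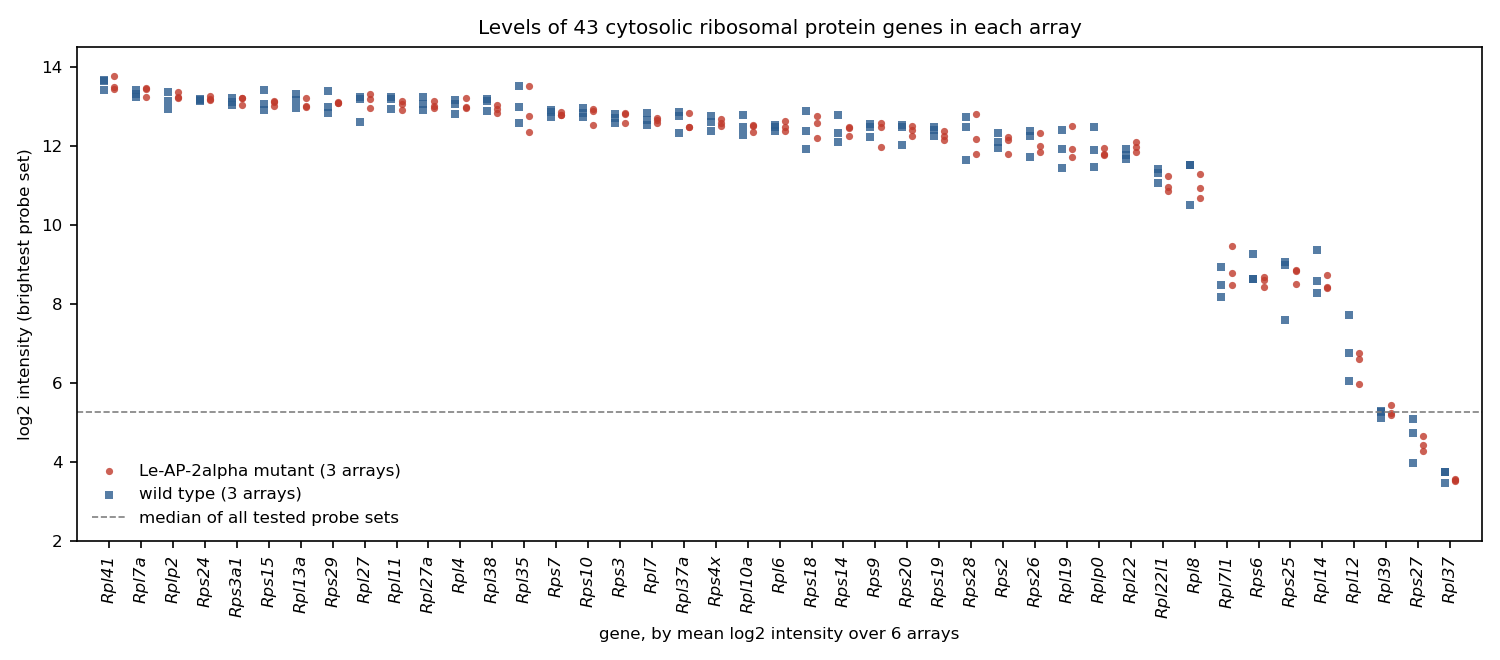
Log2 intensity of the brightest probe set (vertical axis) for each of the 43 ribosomal protein genes (horizontal axis, ordered by mean), with 1 point per array, red circles for the 3 mutants and blue squares for the 3 wild types. The dashed line is the median of all tested probe sets, 5.26; 30 genes have a mean of 12 or more and 3 lie below the line.

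Between mutant and wild-type lenses, no ribosomal protein gene passed the test. limma called 0 of the 43 members at an adjusted p under 0.05, where 0% of all genes and probe sets were called, and the limma adjusted p of each member was 0.999. At an unadjusted p under 0.05, limma had 0 members higher and 0 lower, against 2.13% of all genes higher and 1.72% lower (3.85% in both directions), and with array weights the counts were 0 and 0 as well. The groups overlapped for the brightest probe set of each of the 43 members, whereas they did not overlap for 8.8% of all genes (4.22% higher and 4.58% lower in mutants). The median log2 difference, mutant minus wild type, was -0.03 over the members and -0.01 over all genes. In size the median difference was 0.07 for members, 0.20 for all genes and 0.09 for the 158 other genes with a mean of 12 or more. Of the members 17 had a higher value in mutants and 26 a lower one (39.5% higher, against 47.8% of all genes). This split followed the scaling: 8 of 43 were higher (18.6%) after median centring of the arrays, when 40.4% of all genes were, and 23 (53.5%) after quantile normalisation, when 49.1% were. Without wild-type replicate 1, 25 of 43 were higher, and the median difference was 0.03. Without wild-type replicate 2, 12 were higher, the median was -0.11, and the groups did not overlap for 7 members (16.3%, against 24.97% of all genes with the same arrays).

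The limma fit bounded the size of the differences, with a variance for each probe set drawn partly from all probe sets. For members of small spread this widened the interval: Rps24 had a residual SD of 0.05 and an SE of 0.16. The 95% confidence interval of the limma fit lay wholly within a 1.5-fold change for 24 of the 43 members, against 15.1% of all genes. Most genes are dimmer: at a mean of 12 or more the median SE was 0.19 for members and 0.19 for the 158 other genes. The 24 genes of the large subunit and stalk had a median difference of -0.05, with 9 higher and 15 lower. The 19 small subunit genes had a median of -0.02, with 8 higher and 11 lower.

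**Figure D2:**
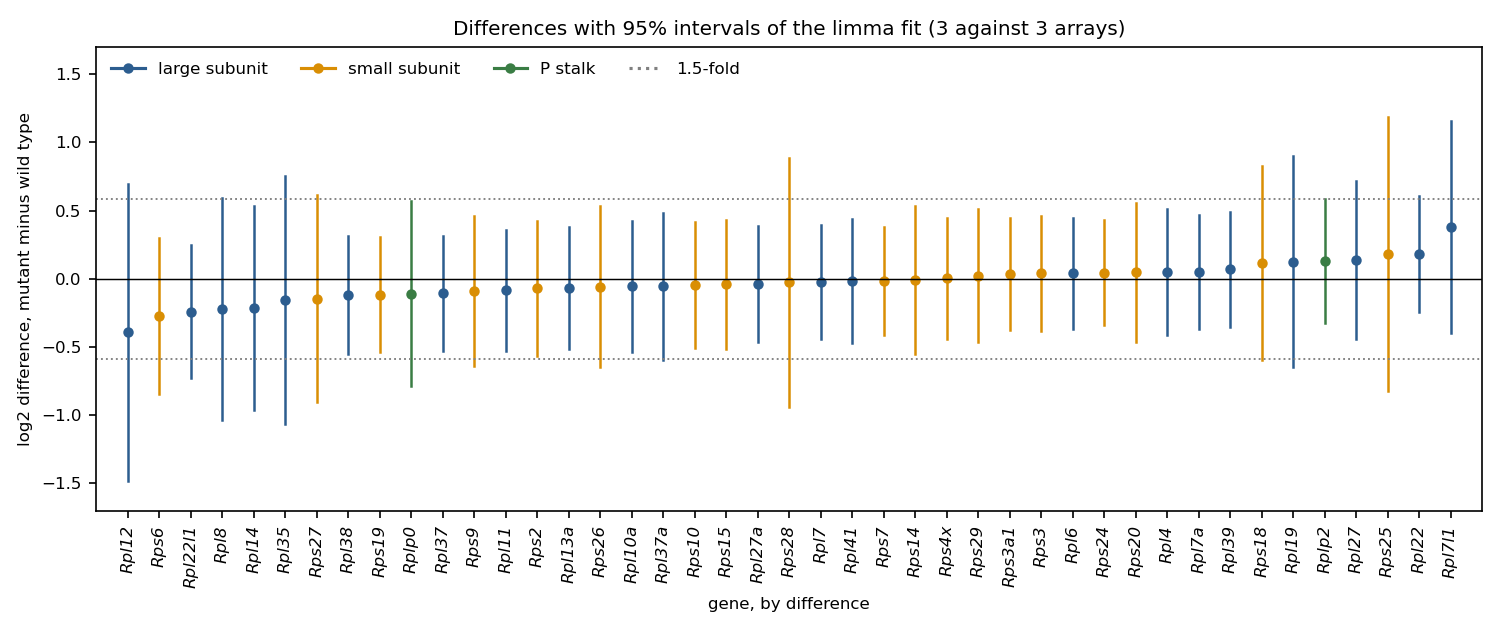
Log2 difference, mutant minus wild type, of each of the 43 genes with the 95% interval of the limma fit (3 against 3 arrays), coloured by subunit and ordered by difference. Each interval includes 0, and 24 lie wholly between the dotted lines of a 1.5-fold change.

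The stalk of the large subunit recruits the GTPases of elongation. Rplp0, its scaffold, was at 11.78, 11.94 and 11.78 in mutants and at 12.47, 11.46 and 11.89 in wild types, a difference of -0.11 ± 0.28 (SE). The wild types enclosed the mutants, and without wild-type replicate 1 the difference was 0.16. Rplp2, an acidic stalk protein, was at 13.21, 13.36 and 13.24 in mutants and at 13.12, 12.93 and 13.36 in wild types, a difference of 0.13 ± 0.19. Rpl12, which binds the base of the stalk, had the most negative difference of all members, -0.39 ± 0.45, at a low level. Its mutants were at 6.76, 6.60 and 5.96 and its wild types at 7.71, 6.75 and 6.04, so that wild-type replicate 1 stood above the other arrays. Without that array the difference of Rpl12 was 0.05.

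Among the other large subunit genes, Rpl22l1 had the lowest p of all members by brightest probe set (limma adjusted p = 0.999). Rpl22l1 was at 11.24, 10.84 and 10.95 in mutants and at 11.30, 11.05 and 11.42 in wild types, a difference of -0.24 ± 0.20. Its paralogue Rpl22, an RNA-binding protein that other mouse work describes as a repressor of Rpl22l1, had a difference of 0.18 ± 0.18, with mutants at 11.96, 12.08 and 11.84 and wild types at 11.76, 11.66 and 11.91. The 2 paralogues thus had differences of opposite sign, each with overlapping groups. A second probe set of Rpl22 differed by -0.12.

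Rpl7l1, the paralogue of Rpl7, had the most positive difference, 0.38 ± 0.32, with mutants at 9.45, 8.77 and 8.48 and wild types at 8.47, 8.17 and 8.92. Its second, dimmer probe set differed by -0.29 ± 0.19, with mutants at 7.38, 7.49 and 7.47 and wild types at 7.85, 7.50 and 7.86. The groups did not overlap for that probe set, so the direction depended on the probe set. Rpl7 itself differed by -0.02 ± 0.17. Rpl8, which lies near the peptidyl transferase centre, differed by -0.22 ± 0.34, and without wild-type replicate 1 by -0.05. Rpl14 differed by -0.22 ± 0.31, and without that array by 0.10. Rpl27 was at 13.18, 12.95 and 13.30 in mutants and at 12.59, 13.25 and 13.19 in wild types. Its difference of 0.14 ± 0.24 was -0.07 without wild-type replicate 1, the lowest of its 6 arrays. Rpl11, which binds Mdm2 when ribosome assembly is disturbed, differed by -0.09 ± 0.18. Rpl38, whose loss gives the Tail-short mouse, differed by -0.12 ± 0.18.

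In the small subunit, Rps6, the substrate of the S6 kinases, had the most negative difference, -0.27 ± 0.24. Rps6 was at 8.68, 8.41 and 8.61 in mutants and at 9.26, 8.63 and 8.63 in wild types, and without wild-type replicate 1 its difference was -0.06. Rps19, the gene most often mutated in Diamond-Blackfan anaemia, was at 12.36, 12.25 and 12.14 in mutants and at 12.39, 12.24 and 12.47 in wild types, a difference of -0.12 ± 0.17. Rps25, used in initiation at some viral RNAs, had the most positive difference of the small subunit, 0.18 ± 0.42. One wild type was low (7.58, against 8.98 and 9.06 in the others and 8.49 to 8.86 in the mutants), and without it the difference was -0.30. Of the members with the largest wild-type spread, Rpl12 had an SD of 0.84, Rps25 of 0.83 and Rpl8 of 0.59 (n = 3).

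Many members varied little over the 6 arrays. The range from lowest to highest array had a median of 0.50 log2 units over the members, 0.97 over all genes and 0.65 over the 503 other genes with a mean of 11 or more. Of the members 27 had a range in the lowest 25% of all genes, and 10 had a range above the median gene. Rps24, a small subunit protein, had the smallest range of all members, from 13.13 to 13.27, and 0.307% of all genes had a smaller one. Rps7 ranged from 12.72 to 12.89 (0.613% of genes smaller) and Rps3a1 from 13.02 to 13.22 (1.07% of genes smaller). These 3 were named after their values were seen, and levels near the top of the scale can understate the spread.

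In some members that did vary, the arrays that stood high and low came from both genotypes. In others, Rps25 and Rplp0 among them, the highest and the lowest array were both wild types. Rpl35, a protein near the exit of the nascent chain, was at 12.76, 13.51 and 12.34 in mutants and at 12.98, 12.56 and 13.52 in wild types. Rps28, a small subunit protein, followed the same order, with 12.16, 12.81 and 11.79 in mutants and 12.47, 11.65 and 12.73 in wild types. Mutant replicate 2 and wild-type replicate 3 were the highest arrays of both genes, and mutant replicate 3 and wild-type replicate 2 the lowest.

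Rpl19, which takes part in bridges between the subunits, was at 12.49 and 12.39 in the first pair of arrays and at 11.72 and 11.44 in the second. Rps18 was at 12.75 and 12.88 against 12.20 and 11.92. Rps9 and Rps2 ran the other way: Rps9 was at 11.97 and 12.23 in mutant replicate 2 and wild-type replicate 3, against 12.58 and 12.48 in mutant replicate 3 and wild-type replicate 2, and Rps2 was at 11.80 and 11.95 against 12.23 and 12.09. These genes and this order of arrays were picked after the values were seen. Both arrays of the first pair lay above both of the second for 23 of the 43 members (53.5%), against 22.4% of all genes and 18.3% of the 503 other genes with a mean of 11 or more. The opposite held for 7 members, against 17.6% of all genes and 26.8% of those bright genes.

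The same arrays differed in control probe sets that read the 3′ and 5′ ends of Gapdh and beta-actin transcripts. The 3′ minus 5′ log2 difference, averaged over both, was 1.77 in mutant replicate 2 and 1.68 in wild-type replicate 3. It was 1.43 in mutant replicate 1 and 1.30 in wild-type replicate 1. The lowest values were 1.0 in mutant replicate 3 and 0.98 in wild-type replicate 2. With this difference as a covariate in the fit, chosen after seeing the data, the residual SD of Rpl35 was 0.11 in place of 0.54, that of Rps28 0.18 in place of 0.54 and that of Rpl19 0.14 in place of 0.44. The median residual SD was 0.14 in place of 0.19 over the members, and 0.35 in place of 0.36 over all genes. The residual SD was lower for 27 of the 43 members and for 34.9% of all genes. Rpl35, Rps28 and Rpl19 had been picked for following the order of arrays that the covariate also ranks. Members of larger residual SD went the other way, with 0.77 in place of 0.67 for Rpl12 and 0.68 in place of 0.61 for Rps25. Genotype differences were -0.27 ± 0.19 for Rpl35 and -0.14 ± 0.21 for Rps28 with the covariate, and 0 members had an unadjusted limma p under 0.05.

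**Figure D3:**
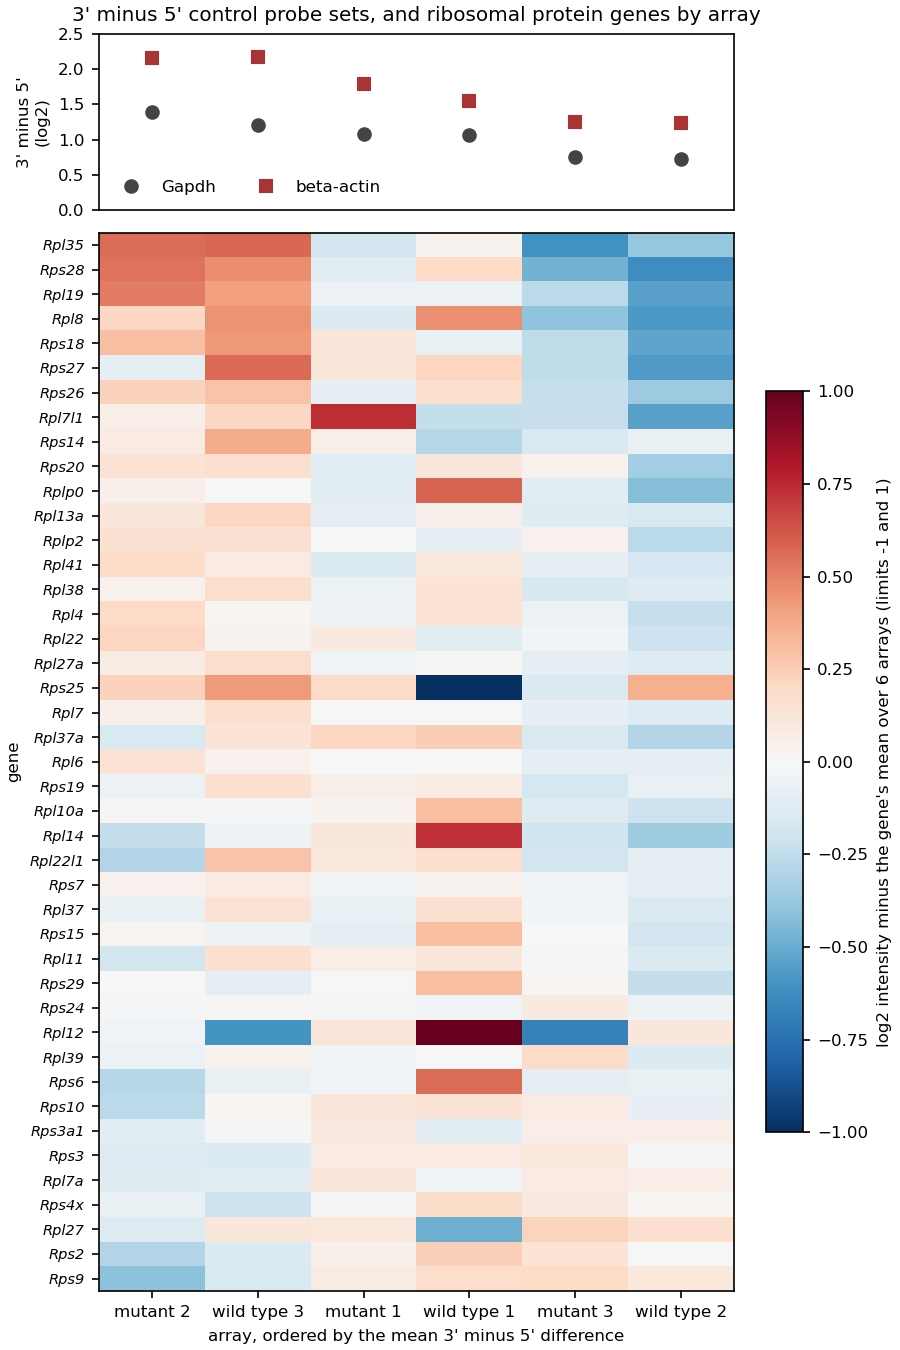
Upper panel, 3′ minus 5′ log2 difference of the Gapdh and beta-actin control probe sets in each array. Lower panel, log2 intensity of each ribosomal protein gene minus its mean over the 6 arrays, in colour between -1 and 1, with arrays in the same order; Rpl35, Rps28 and Rpl19 are high in mutant 2 and wild type 3 and low in mutant 3 and wild type 2, and Rps9 and Rps2 lie at the other end.

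Other probe sets of the same genes gave further readings of this order, although those ending in _x_at can share sequence with other transcripts. The 3 probe sets of Rps28 were at 12.25, 12.61 and 12.81 in mutant replicate 2 and at 11.37, 11.69 and 11.79 in mutant replicate 3. The 5 bright probe sets of Rpl35 were at 12.45 to 13.51 in mutant replicate 2 and at 11.07 to 12.34 in mutant replicate 3. A sixth, dimmer probe set of Rpl35 ran the other way, at 5.62 in mutant replicate 2 and 5.42 in wild-type replicate 3, against 6.76 in mutant replicate 3 and 5.99 in wild-type replicate 2. Rpl41 showed the same split. Its brightest probe set was at 13.76 in mutant replicate 2 and 13.48 in mutant replicate 3, and its dimmest at 7.38 and 8.33. The positions of these probe sets along the transcripts were not used here, and the part of RNA integrity or amplification in these patterns was not tested.

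Of the 43 members, 21 had more than 1 probe set, with 49 probe sets beside the brightest ones. Their genotype difference had the sign of the brightest in 30 of 49, and the gap between them had a median size of 0.09 log2 units and a largest size of 0.67, the latter for Rpl7l1. For the 28 of them with a mean log2 of 10 or more, the median gap was 0.06 and the largest 0.21. Probe sets ending in _x_at made up 41.3% of the members' probe sets and 6.68% of all, and 12 of the 43 brightest probe sets were of this kind.

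**Figure D4:**
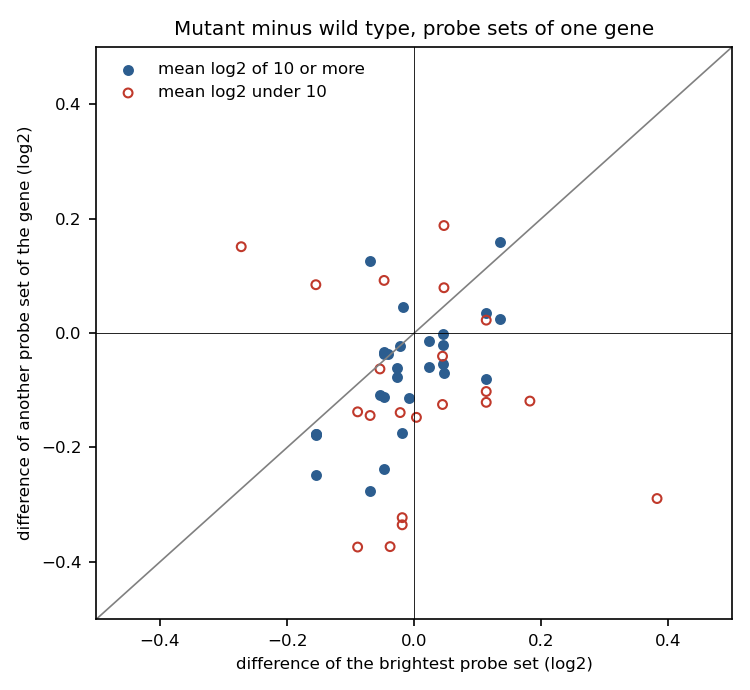
Log2 difference, mutant minus wild type, of the brightest probe set of a gene (horizontal axis) and of each of its 49 other probe sets (vertical axis), with the line of equality. Filled points are the 28 probe sets with a mean log2 of 10 or more, which lie within 0.21 of the line; open points are dimmer.

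Ribosomal proteins with other symbols also gave 0 limma calls at an adjusted p under 0.05. Rpsa, a small subunit protein, differed by 0.13 ± 0.19 (0.22 without wild-type replicate 1), and Fau, which encodes a fusion of a ubiquitin-like protein and a small subunit protein, by -0.17 ± 0.25 (0.06 without that array). Of the paralogues with symbols ending in l, Rps27l differed by 0.15 ± 0.40, and by -0.25 without that array. Rpl3l (-0.35 ± 0.23) and Rpl39l (-0.37 ± 0.45, or -0.64 without that array) were dim.

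Other genes of ribosome production and translation gave no limma call at an adjusted p under 0.05. Groups did not overlap for 8.8% of all genes. They did not for 1 gene higher and 1 lower of the RNA polymerase I list, and for 2 higher and 1 lower of small subunit assembly. Initiation factors had 1 such gene, higher in mutants. The mTORC1, aminoacyl-tRNA synthetase and mitochondrial ribosomal protein lists had 1 each, lower in mutants, and the other lists of this kind 0. The counts that follow are at an unadjusted p under 0.05. RNA polymerase I and its factors, which make ribosomal RNA, had 0 of 14 genes higher and 1 lower, with a median difference of 0.03. The lower one was Polr1e, a polymerase subunit, at 7.73, 7.85 and 7.35 in mutants and 8.72, 8.06 and 8.17 in wild types, a difference of -0.68 ± 0.25 (limma adjusted p = 0.999). Its groups did not overlap. Tcof1, a nucleolar factor of that transcription, differed by 0.32 ± 0.20, and its groups did not overlap either. Among 38 genes of large subunit assembly, 0 passed in either direction and the median was -0.03, with Brix1 at 0.41 ± 0.23 and Rrs1 at 0.67 ± 0.41. Without wild-type replicate 1 these were 0.22 and 0.20. Among 33 genes of small subunit assembly, 0 passed and the median was -0.07. Tsr2, a chaperone of Rps26, differed by -0.33 ± 0.20 and Wdr75 by 0.29 ± 0.17, each with groups that did not overlap. Of the 8 proteins of guide RNA particles that modify ribosomal RNA, 0 passed and the median was -0.03; Gar1 differed by 0.43 ± 0.32 and Nhp2 by -0.31 ± 0.44, or -0.01 without wild-type replicate 1.

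Initiation factors had 1 of 32 genes higher and 0 lower, with a median of -0.07. The higher one was Eif4ebp2, a repressor of the cap-binding factor, at 7.75, 7.93 and 7.77 in mutants and 7.05, 7.28 and 7.59 in wild types, a difference of 0.51 ± 0.20 (limma adjusted p = 0.999), and its groups did not overlap. Eif1ax differed by -0.25 ± 0.19. Elongation and release factors had 0 of 12 in either direction and a median of 0.01, with Eef1a2, which was dim, at -0.24 ± 0.23 and Etf1 at -0.20 ± 0.29, or 0.07 without wild-type replicate 1. The 14 other TOP transcripts, which overlap these lists, had 0 in either direction and a median of 0.01. Of these Eif4b differed by 0.52 ± 0.44 (0.00 when wild-type replicate 1 was left out) and Eif3h by 0.16 ± 0.19 (0.06 likewise). In the mTORC1 and S6 kinase list 0 of 11 passed, with a median of -0.14; the kinase Rps6ka3 differed by 0.33 ± 0.24 and Myc, which was dim, by -0.32 ± 0.19. Leaving out single arrays turned the sign of the median of each of these 8 lists, from RNA polymerase I to mTORC1, within -0.31 to 0.18.

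Cytosolic aminoacyl-tRNA synthetases, which charge tRNAs, had lower values in mutants for 16 of 18 genes, with a median of -0.11 and with 0 genes past the unadjusted threshold upward and 1 downward. That gene was Lars, the leucyl-tRNA synthetase, at 10.44, 10.32 and 10.38 in mutants and 10.75, 10.78 and 10.87 in wild types, a difference of -0.42 ± 0.16 (limma adjusted p = 0.999). Its groups did not overlap, and without wild-type replicate 1 its difference was -0.44. Cars differed by -0.78 ± 0.34. Mitochondrial ribosomal proteins had lower values for 53 of 73 genes, with a median of -0.11 and 0 past the unadjusted threshold; Mrpl17 differed by -0.58 ± 0.27 (-0.35 without wild-type replicate 1) and Mrps26 by -0.63 ± 0.31. Both lists moved with single wild types. Without wild-type replicate 1, 10 of 18 synthetases and 39 of 73 mitochondrial ribosomal protein genes were higher, with medians of 0.12 and 0.03. Without wild-type replicate 2, 0 of 18 and 14 of 73 were higher, with medians of -0.36 and -0.32. Genes of p53 and its targets, which respond to disturbed ribosome assembly, had 8 of 12 higher and a median of 0.11, with 0 past the unadjusted threshold. Leaving out single arrays gave that median values from 0.03, without wild-type replicate 1, to 0.56, without wild-type replicate 2. It was 0.37 without mutant replicate 2 and 0.26 without wild-type replicate 3. Cdkn1a differed by 0.66 ± 0.35 (1.03 without wild-type replicate 1) and Trp53inp1 by 1.31 ± 0.75, or 0.40 without wild-type replicate 1.

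**Figure D5:**
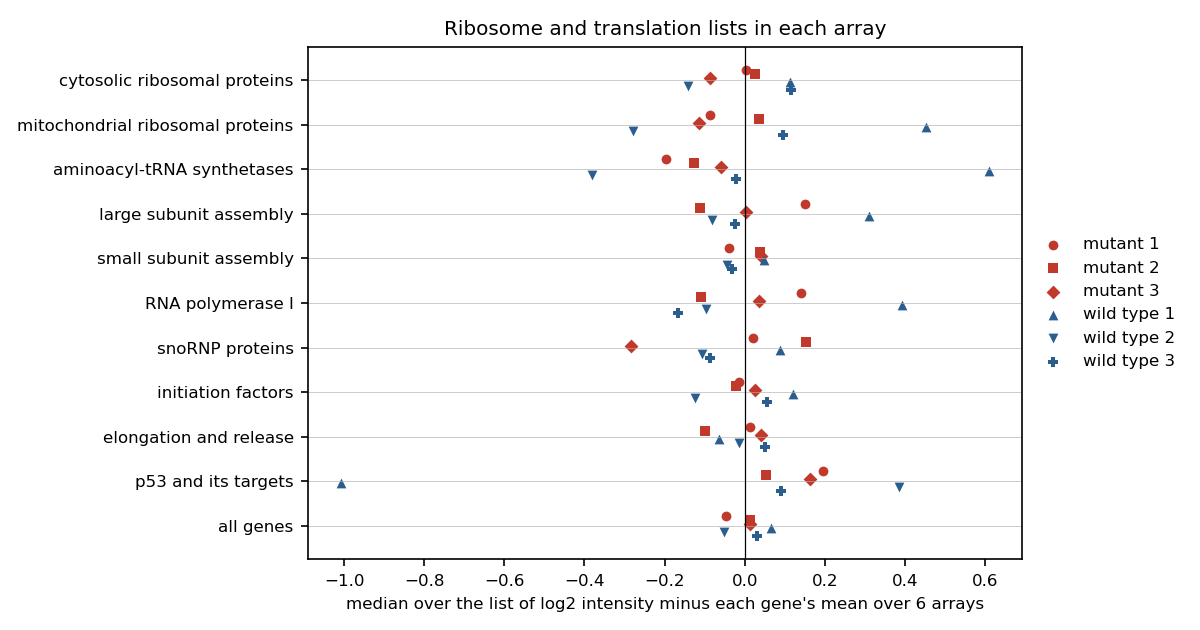
Median over each gene list (vertical axis) of log2 intensity minus the gene's own mean over the 6 arrays (horizontal axis), with 1 symbol per array, red for mutants and blue for wild types. The cytosolic ribosomal proteins stay between -0.14 and 0.12, while wild type 1 lies at 0.45 for mitochondrial ribosomal proteins, 0.61 for the synthetases and -1.01 for p53 and its targets.

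Array by array, the members' median deviation from their own means was 0.00, 0.03 and -0.09 in the mutants and 0.11, -0.14 and 0.12 in the wild types, against -0.05 to 0.07 for all genes. Wild-type replicate 2 was the lowest array for 26 of 43 members, against 21.0% of all genes, and wild-type replicates 3 and 1 were the highest for 16 and 13 (14.3% and 33% of all genes). The median deviations of the mutants thus lay within those of the wild types, which does not hold for each member. Mutant replicates 1, 2 and 3 were the highest array for 3, 6 and 5 members (9.5%, 13.5% and 15.2% of all genes). They were the lowest for 0, 8 and 4 (16.3%, 12.8% and 11.9% of all genes).

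The 9 measured lens markers had mean levels of 10.8 to 11.3 in mutants and 11 to 11.6 in wild types, with 7 of 9 lower in mutants. Of the macrophage markers, 10 of 10 had higher values in mutants, with mean levels of 5.61, 7.09 and 5.89 against 5.39 to 5.42, and retina (8 of 9) and stroma (8 of 9) markers were mostly higher as well. Endothelial markers had 3 of 7 higher, with mean levels of 6.20 to 6.52 in mutants and 6.33 to 6.67 in wild types. The 4 measured red blood cell markers, all dim, were at 4.96, 2.91 and 4.07 in mutants and 4.75, 3.19 and 2.78 in wild types. Their part in the members' values was not tested, and fewer cells of a type and less RNA per cell cannot be told apart in such samples.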

How the data were processed

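Per the labels' protocols, lens RNA went through Nugen Ovation amplification and biotin labelling. The deposited intensity values, 1 column per array, were made by the authors with RMA, per the submitters' processing notes, which give no version. RMA corrects background and equalises arrays by quantiles, which can compress dim and very bright values. Here log2 was taken with no pseudocount, and 0 columns were left out. Groups came from the labels. The 22626 probe sets that are not array controls were fitted with limma 3.58.1 in R 4.3.3 (lmFit, eBayes, no covariate, two-sided, Benjamini-Hochberg over all of them, threshold 0.05). Differences are mutant minus wild type on the log2 scale with the SE of the fit. The number of arrays limits the precision.

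Gene names came from GEO's annotation of the array, which can be old, and 691 with several symbols and 1555 with none named no gene. Named members were those of largest difference either way, lowest p, highest and lowest level, largest wild-type spread, and Rplp0, Rplp1, Rplp2, Rpl5, Rpl11, Rps6, Rps19, Rpl24, Rpl38 and the paralogues where they are members (Rplp1, Rpl5 and Rpl24 are not), with the 2 genes of lowest p from each list. Members, lists and rule were chosen with earlier results of these data known. On simulated data of 22626 probe sets for this comparison the fit recovered 20%, 42%, 88% and 88% of 50 probe sets each changed by a log2 of 1, 2, 3 and 4, with 8 false calls. Promoter letters are from RefSeq, GRCm38.p6.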

Additional observations from a re-analysis of the deposited data

How the results depend on the processing

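Over the alternatives, one of them (the 3′ minus 5′ covariate) chosen after seeing the data, and the leaving out of each array, 0 ribosomal protein genes were called and 0 had an unadjusted limma p under 0.05 in either direction. Their median difference ran from -0.11 to 0.03, in each case less far from the reported value than the spread between replicates of the members' median (0.11). Leaving out single arrays gave 12 to 25 members with a higher value. After median centring 8 members were higher and the groups of 1 did not overlap (2.33%, against 9.77% of all genes); quantile normalisation also gave 1 (9.04% of all genes). Without wild-type replicate 1 and mutant replicate 2, 7 members had groups that did not overlap, or 16.3% against 33.4% of all genes. Leaving out single arrays gave 1 to 7, or 2.33% to 16.3%, against 14.9% to 24.97% of all genes. Array weights called 7 probe sets over the array, and 0 of the members' brightest ones. The labels do not say whether the same replicate numbers pair the arrays. Deviations of same-numbered arrays correlated at -0.07, -0.26 and -0.16, but with so few arrays these values cannot decide whether arrays are paired. With the replicate block 0 probe sets were called, as without it, and 17 members were higher. Of 726 values of 46 named genes under the alternatives, 0 reversed and 0 passed the threshold. A difference within 1 SE of 0 was taken to have no direction. Changes of sign such as those of Rps25 and Rpl27 without wild-type replicate 1 were therefore not counted as reversals. Of 208 list medians 14 moved by more than the replicate spread. Saturation near the top of the scale can limit the smallest differences that can be read, and was not tested.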
